A study of Mus musculus with 6 samples.

Results

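Open chromatin that all 6 libraries of the study shared at the ends of protein-coding genes comprised 10086 autosomal regions. Overlapping peaks (1 bp or more) of the 6 deposited lists were joined into regions. A region was kept when every library had a peak in it and when it lay within 1000 bp of either end of a protein-coding gene of the RefSeq annotation (GRCm38.p6, the assembly behind mm10). The 10086 regions were part of 28808 autosomal regions shared by all 6 libraries and of 63317 autosomal regions called in any library. They lay at 10749 of 20665 autosomal protein-coding genes (52.0%). The members were chosen by the presence of a called peak and by position. Their heights and lengths are therefore those of peaks that every library had called.

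The libraries came from regulatory T cells (Tregs) sorted as CD4+CD25+GITR+ cells, labelled Foxp3+, from lymph nodes draining a B16.F10 melanoma. All mice had received 300000 B16.F10 cells subcutaneously, and the nodes were taken on day 14. The wild-type (WT) group was C57BL6, with 3 libraries numbered 2, 4 and 6. The other group was il33-/- on the C57BL6 background (KO), with 3 libraries numbered 1, 2 and 4. Il33 encodes interleukin-33, a cytokine that tissue cells release when damaged. The labels give neither age nor sex, and do not say whether replicates came from separate mice, so the p-values rest on the spread between libraries alone, and that spread may be technical.

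ATAC-seq reads open chromatin through the transposase Tn5, which inserts adapters where DNA is free of nucleosomes. The start of an active gene usually holds such a gap, where general transcription factors and RNA polymerase II assemble. Many starts lie in CpG islands and carry binding motifs of broadly expressed factors, such as the GC box of Sp1 and Sp3 or the CCAAT box of NF-Y, and such promoters are open in most cell types. Genes restricted to a lineage often rely more on enhancers away from the start.

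The sequences that follow show what lies before the starts of some of the regions described below. They are 200 bases upstream of a RefSeq start, 5′ to 3′ on the gene's strand, from RefSeq on GRCm38.p6. Capitals mark matches, on either strand, to 12 short motifs: GGGCGG (the GC box), CCAAT (the CCAAT box of NF-Y), CCGGAAG (ETS factors), TGACGTCA (CRE), GCGCATGC (NRF1), AAGATGGCG (YY1), CACGTG (E-box), TATAAA (the TATA box), TGANTCA (AP-1), TGTGGT (RUNX), GAAANNGAA (interferon response) and ACTACANNT (which carries no factor name here). Matches may overlap, as a CCAAT box and a GC box do before Sp1. Hjurp (chr1:88277580-88277779, minus strand), Sp1 (chr15:102406116-102406315, plus strand), Cic (chr7:25267499-25267698, plus strand), Kat7 (chr11:95310247-95310446, minus strand) and Cnot3 (chr7:3645069-3645268, plus strand) were among the 10 tallest regions and are shown for their CCAAT boxes, the motif whose share in percentage points differed most between the tallest regions and those of middle height.
Hjurp: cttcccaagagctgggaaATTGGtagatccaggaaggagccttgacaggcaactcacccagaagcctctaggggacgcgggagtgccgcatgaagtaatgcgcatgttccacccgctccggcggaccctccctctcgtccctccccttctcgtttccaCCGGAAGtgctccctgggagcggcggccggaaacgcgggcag
Sp1: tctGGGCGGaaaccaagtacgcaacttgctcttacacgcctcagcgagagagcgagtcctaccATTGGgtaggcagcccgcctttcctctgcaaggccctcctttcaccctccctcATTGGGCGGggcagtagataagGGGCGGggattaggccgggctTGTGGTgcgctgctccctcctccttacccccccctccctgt
Cic: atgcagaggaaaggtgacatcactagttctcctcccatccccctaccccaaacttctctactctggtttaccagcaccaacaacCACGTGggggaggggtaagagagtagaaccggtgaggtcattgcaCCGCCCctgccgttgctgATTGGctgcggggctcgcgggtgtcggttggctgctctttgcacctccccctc
Kat7: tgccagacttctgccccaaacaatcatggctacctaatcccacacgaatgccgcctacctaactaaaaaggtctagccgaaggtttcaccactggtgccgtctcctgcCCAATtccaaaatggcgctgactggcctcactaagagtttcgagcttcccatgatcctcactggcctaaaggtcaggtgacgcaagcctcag
Cnot3: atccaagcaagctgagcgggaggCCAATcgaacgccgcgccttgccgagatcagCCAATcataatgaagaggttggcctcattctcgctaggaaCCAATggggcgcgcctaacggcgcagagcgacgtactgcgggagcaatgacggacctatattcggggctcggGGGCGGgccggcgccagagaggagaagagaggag
Sp3, with 2 starts in its region (chr2:72980447-72980646, minus strand, and chr2:72979282-72979481, minus strand), and Stat6 (chr10:127642786-127642985, plus strand) were among the 10 widest.
Sp3 start 1: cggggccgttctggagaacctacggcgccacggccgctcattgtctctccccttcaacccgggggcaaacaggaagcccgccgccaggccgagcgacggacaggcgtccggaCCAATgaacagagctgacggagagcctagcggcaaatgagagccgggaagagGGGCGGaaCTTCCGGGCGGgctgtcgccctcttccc
Sp3 start 2: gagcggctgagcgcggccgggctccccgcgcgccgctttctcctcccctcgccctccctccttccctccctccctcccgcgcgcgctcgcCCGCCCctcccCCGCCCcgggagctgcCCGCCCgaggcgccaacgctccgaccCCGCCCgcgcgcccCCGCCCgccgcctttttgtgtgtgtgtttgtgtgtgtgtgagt
Stat6: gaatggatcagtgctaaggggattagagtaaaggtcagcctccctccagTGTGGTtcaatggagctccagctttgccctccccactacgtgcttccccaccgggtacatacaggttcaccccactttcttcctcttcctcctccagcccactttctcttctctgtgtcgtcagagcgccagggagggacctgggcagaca
Mxra7, also with 2 starts in its region (chr11:116828047-116828246, minus strand, and chr11:116828128-116828327, minus strand), was among the 3 shortest in height.
Mxra7 start 1: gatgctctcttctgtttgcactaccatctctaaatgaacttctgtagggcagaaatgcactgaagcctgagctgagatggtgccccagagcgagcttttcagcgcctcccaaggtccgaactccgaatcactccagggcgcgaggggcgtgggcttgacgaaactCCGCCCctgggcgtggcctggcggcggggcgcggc
Mxra7 start 2: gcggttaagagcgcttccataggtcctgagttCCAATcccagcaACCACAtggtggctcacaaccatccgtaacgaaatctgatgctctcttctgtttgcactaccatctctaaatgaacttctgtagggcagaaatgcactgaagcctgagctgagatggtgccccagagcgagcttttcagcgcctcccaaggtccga
Dnajc24 (chr2:106003550-106003749, minus strand) and Ptbp2 (chr3:119783389-119783588, minus strand) were lower in KO and were picked for display after their values were seen.
Dnajc24: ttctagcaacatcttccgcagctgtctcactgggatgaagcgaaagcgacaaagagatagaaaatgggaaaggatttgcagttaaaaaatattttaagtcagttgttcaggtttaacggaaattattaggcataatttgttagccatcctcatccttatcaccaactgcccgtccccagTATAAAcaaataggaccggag
Ptbp2: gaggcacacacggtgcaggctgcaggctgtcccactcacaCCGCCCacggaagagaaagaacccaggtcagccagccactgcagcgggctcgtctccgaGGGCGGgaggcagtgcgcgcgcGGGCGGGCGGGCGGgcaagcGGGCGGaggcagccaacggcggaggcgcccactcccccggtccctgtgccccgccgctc

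Of the 10 tallest regions 9 had such a sequence, and 6 of the 9 held a CCAAT box in these 200 bases. Those at Oxsr1, Fbrs and Spag7 held none. At Mxra7, low in height, 1 of the 2 starts had a CCAAT box. Of the 10 regions lowest in p among those lower in KO 7 had a sequence, and 1 of the 7, at 4930453N24Rik, held a CCAAT box. Ptbp2 had 6 GC boxes, and the sequence before Dnajc24 had a TATA motif and no GC box. A match describes letters only and does not show that a factor was bound.

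After duplicates were removed, depth was 12.9 to 15.2 mega-tags (M tags) in WT and 4.72 to 10.3 M tags in KO, so every KO library was shallower. Duplicates made up 13.8% to 14.7% of tags in WT and 8.37% to 9.06% in KO. The WT lists held 8 to 9 peaks on chromosome Y and the KO lists 0. Depth, duplicates and these Y peaks separated the libraries exactly as genotype did, so in every comparison of KO with WT below they and genotype cannot be told apart. No region within 1000 bp of an end of Il33 was among the members. Of the genes of the proteins used for sorting, Il2ra (CD25) and Cd4 had a member region and Tnfrsf18 (GITR) had none. Foxp3 lies on chromosome X, outside the autosomal set.

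Regions at gene ends were taller and longer than the shared regions elsewhere. Height is the pileup, the number of tags extended to 200 bp that cover the summit, and is not scaled to depth in the deposited files. The median height at gene ends was 80, 83 and 84 tags in WT libraries 2, 4 and 6 and 49, 37 and 53 tags in KO libraries 1, 2 and 4. Over the 18722 other shared regions it was 36, 37 and 37 in WT and 21, 15 and 24 in KO. The ratio was between 2.21 and 2.47 in each library, with a geometric mean of 2.29 (exact sign-flip test over 6 libraries, two-sided, p = 0.031, the smallest p that 6 libraries can give). Median length was 1014, 1011 and 987 bp in WT and 851, 760 and 884 bp in KO at gene ends, against 592, 585 and 567 bp and 472, 403 and 491 bp elsewhere. The geometric mean of the length ratios was 1.78 (exact sign-flip test, p = 0.031). In bulk libraries a site open in fewer cells and a site less open in each cell cannot be told apart.

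**Figure D1:**
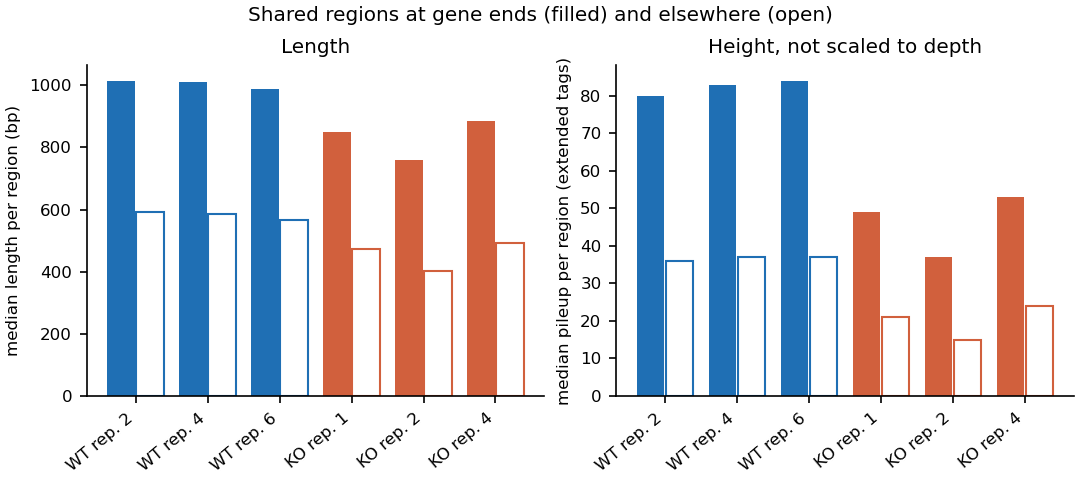
Median length (left, bp) and median pileup (right, extended tags at the summit, not scaled to depth) per library, for the 10086 gene-end regions (filled bars) and the 18722 other shared regions (open bars). In all 6 libraries the filled bar is the higher one, and the KO bars lie below the WT bars in both panels.

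Heights were divided by each library's median over the gene-end regions, so that 1 is the typical gene-end region of a library. Averaged over the 6 libraries, the 10th and 90th percentiles were 0.384 and 1.56 on this scale, and the tallest region reached 2.54. Mean lengths ran from 219 to 2925 bp with a median of 919 bp. Taller regions were longer: the median length rose from 515.5 bp in the 10% of regions lowest in height to 1125 bp in the tallest 10%. Across the 10086 regions Spearman's rho of height and length was 0.54, a description over regions that share their libraries. Libraries ranked the regions much alike, with Pearson's r of log2 height between 0.963 and 0.967 for pairs of WT libraries, 0.946 and 0.956 for pairs of KO libraries, and 0.941 and 0.956 between genotypes.

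Gene starts carried the taller regions. The strand, and so which end is the start, was known for 16457 genes. Of the regions, 6836 (67.8%) lay at a gene start only, 575 (5.70%) at the other end of a gene only, 563 at both kinds of end, and the rest at ends of genes of unknown strand. The median scaled height at starts was between 1.04 and 1.06 in the 6 libraries and at the other ends between 0.405 and 0.472, a ratio of 2.35 (exact sign-flip test, p = 0.031). Regions at starts were also 1.878 times as long (exact sign-flip test, p = 0.031). The 885 regions near starts of genes on both strands were 1.37 times as tall as the 8284 regions near the ends of 1 gene and 1.18 times as long (exact sign-flip test, p = 0.031 for both). The 8284 took in other ends and ends of unknown strand. By the mean over libraries, the median scaled height was 1.32 for the 885 and 1.06 for regions at a gene start only, groups that overlap. These 4 tests were all those made between kinds of gene end, and each p is the smallest possible.

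Regions that contained a gene end were taller than those beside one, in groups that mix starts with other ends. The median scaled height was 1.07 for the 8417 regions that contained a gene end, 0.595 for the 922 regions 1 to 500 bp away, and 0.580 for the 747 regions farther away. The 1000 bp limit of the window cut through a level stretch. The 273 members lying 801 to 1000 bp from an end had a median scaled height of 0.598 and a length of 581 bp, and the 279 shared regions just outside, at 1001 to 1200 bp, had 0.619 and 578 bp.

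Summits sat on the start. Among 5995 regions that held a single start of known strand, the median summit lay 4, 3 and 4 bp upstream of the start in WT libraries 2, 4 and 6 and 8, 6 and 9 bp upstream in KO libraries 1, 2 and 4. Between 67.9% and 69.4% of summits lay within 200 bp of the start. The summits of the 6 libraries in a region spanned a median of 62 bp. The upper quartile of the offset, 131 to 154.5 bp downstream, was farther out than the lower quartile, 55 to 65 bp upstream.

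**Figure D2:**
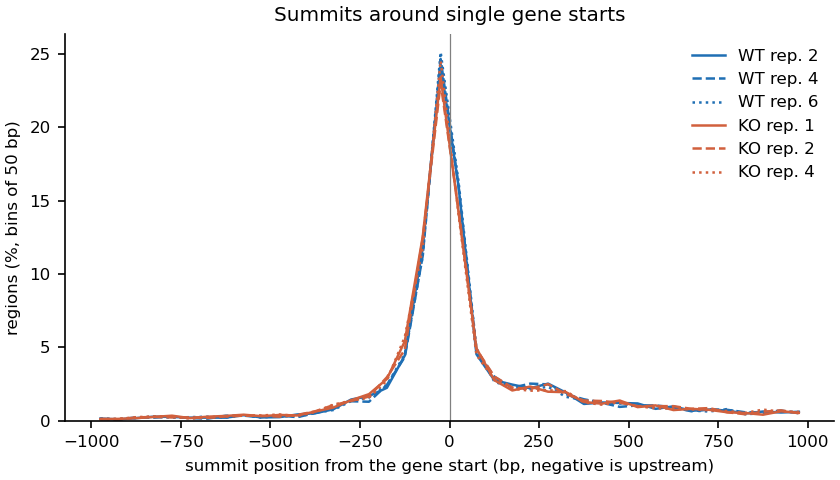
Position of the summit relative to the gene start (bp, negative upstream) as a percentage of 5995 regions with a single start, in bins of 50 bp, for each library (blue WT, orange KO). The 6 curves nearly coincide, with the peak just upstream of the start and a longer shoulder downstream.

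The tallest regions by pileup were at Hjurp, Ankhd1, Tnrc6b and Sp1. Hjurp, the chaperone that loads the centromeric histone CENP-A, had the tallest (chr1:88276633-88278049), with 185, 192 and 195 tags in WT and 141, 107 and 135 in KO. These were the highest values at gene ends in each of the 6 libraries, 2.32 ± 0.00495 (WT) and 2.77 ± 0.195 (KO) times the median (SD, n = 3 each). Ankhd1, an ankyrin-repeat protein, followed with 144, 157 and 171 tags in WT and 115, 102 and 118 in KO. Tnrc6b, a partner of Argonaute in microRNA silencing, had 165, 168 and 175 tags in WT and 121, 85 and 109 in KO. Sp1, the zinc-finger factor that binds GC boxes, had 148, 172 and 166 tags in WT and 113, 95 and 115 in KO. The remaining members of the 10 tallest were Oxsr1 (a stress-responsive kinase), Cic (the repressor capicua), Kat7 (a histone acetyltransferase), Cnot3 (a subunit of the CCR4-NOT deadenylase), the start of Fbrs next to Prr14, and Camta2 with Spag7. Their mean scaled heights were between 2.098 and 2.15. None of the 10 belonged to a list of Treg, T cell or interferon genes.

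Which regions were tallest depended on the measure of height. With the deposited fold enrichment over local background in place of pileup, 0 of these 10 stayed among the 10 tallest, and with the summed pileup of all peaks of a region 1 of 10 did. Under the other alternatives, including leaving out each library, 9 or 10 of the 10 did.

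The widest regions were at other genes. The widest (chr9:124422808-124425938) spanned ends of Gm20783 and LOC108167694, 2 predicted genes, and measured 3094, 3114 and 2931 bp in WT and 2794, 2746 and 2873 bp in KO. Ssbp4, which encodes a single-stranded DNA-binding protein, had 2945, 2872 and 2875 bp in WT and 2379, 2088 and 2133 bp in KO. Crlf2, a subunit of the receptor of TSLP, had 2344, 2394 and 2351 bp in WT and 2248, 2334 and 2327 bp in KO. The KO lengths were below all WT lengths at both genes, but at Crlf2 by as little as 10 bp. Stat6, which carries the interleukin-4 signal, had 2352, 2412 and 2376 bp in WT and 2072, 2017 and 2244 bp in KO. Sp3, a relative of Sp1, had 2577, 2413 and 2570 bp in WT and 2158, 1913 and 2057 bp in KO. The others were the divergent pair Hnrnpa2b1 and Cbx3, the histone genes H2ac20, H2ac21 and H2bc21, Tsc22d2, the intermediate filament gene Vim, and Mepce with Zcwpw1. Width and height picked different regions: the 10 widest ranked between 87 and 4527 by height, and none was among the 10 tallest. With the longest single peak in place of the summed length, 5 of the 10 stayed among the 10 widest.

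**Figure D3:**
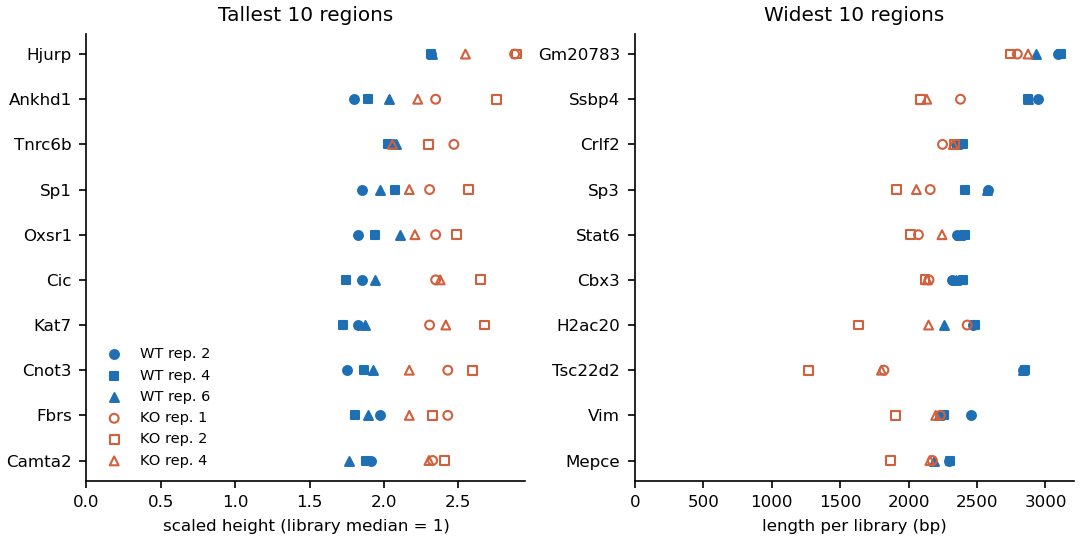
Scaled height of the 10 tallest regions (left, pileup divided by the library's median over gene-end regions) and length in bp of the 10 widest (right), 1 marker per library, filled blue for WT and open orange for KO. Each row is named by the nearest gene. Among the tallest, most KO markers lie to the right of the WT markers, and Tsc22d2 has the widest separation of lengths, 2835 to 2851 bp in WT against 1266 to 1820 bp in KO.

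At the lower end, heights were near the limit of peak calling. The shortest regions in height were at Faim2 (11, 9 and 12 tags in WT, 7, 5 and 9 in KO), Lyrm7 (13, 9 and 11, against 7, 7 and 11) and Mxra7 (11, 12 and 14, against 7, 6 and 10). The narrowest were at Nmrk2, Zfp40 and Dennd5a, with mean lengths of 219, 224 and 224 bp. Apart from Mxra7, whose region held a start, these lay at the end away from the start or at an end of unknown strand.

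The promoters under these regions had more CpG and more motifs of general factors than promoters at large. RefSeq promoter windows of 300 bases (250 before and 50 after the start) were read for 20085 starts of 16457 genes, and 8737 of these starts lay inside a gene-end region. The observed-to-expected CpG ratio had a median of 0.807 in those 8737 windows and 0.586 in all 20085. A GC box was in 70.3% against 47.0% of all, an ETS motif in 22.3% against 11.9%, and the motif ACTACANNT in 6.60% against 4.77%. TATA was in 5.65% against 12.7% and AP-1 in 3.85% against 7.06%. The CCAAT box was about as frequent in both (39.6% and 38.1%).

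Among the groups of height read here, the CCAAT box was most frequent in the tallest regions and about equal in the middle and lowest groups. It was in 63.4% of 1220 windows in the tallest 10% of regions, in 32.4% of 1823 windows in regions between the 40th and 60th percentiles and in 32.2% of 463 windows in the lowest 10%. The motif ACTACANNT was in 11.5%, 5.70% and 2.81% of the same windows. The NRF1 motif was most frequent in the middle, with 4.02%, 8.06% and 1.94%. The GC box varied less, with 75.7%, 68.6% and 68.0%. These shares describe groups chosen by height and were not tested.

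Genes of the lists differed widely in how tall their regions were. There were 18 lists, of Treg, T cell, signalling, housekeeping and marker genes. A listed gene with several regions was represented by its tallest. Counts of genes with a region and medians of scaled height are read beside 52.0% of genes and a median of 1 over the whole set. That median covers every member region, lower second regions of a gene included, so list medians lean upward beside it. A gene without a member region can still have an open start that lies elsewhere than at the annotated end.

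The list of immediate-early and AP-1 genes and that of ribosomal protein genes had the highest median heights. Immediate-early genes respond to stimulation within minutes, which need not hold for every gene of that list. Of 27 immediate-early and AP-1 genes 26 had a region, with a median scaled height of 1.44, and 16 of the 26 regions were among the tallest 25%. Jund had 132, 149 and 154 tags in WT and 96, 74 and 102 in KO. Jun had 133, 133 and 141 against 92, 61 and 99, and Fos 120, 137 and 138 against 80, 55 and 88. Nr4a2, an orphan nuclear receptor, was at the other extreme, with 29, 36 and 30 tags in WT and 19, 12 and 16 in KO. Ribosomal protein genes had a region at 49 of 51, with a median of 1.43 and 31 of 49 among the tallest 25% and 0 among the lowest 25%. Rpl30 was the tallest of them (144, 135 and 158 against 96, 73 and 87 tags) and Rpl38 the shortest (67, 78 and 82 against 44, 32 and 53).

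Other genes that dividing or metabolically active cells need were above the median as groups. Median scaled heights were 1.26 for 22 of 22 genes of mitosis and DNA replication, 1.25 for 28 of 30 genes of oxidative phosphorylation, 1.16 for 29 of 30 proteasome genes and 1.16 for 22 of 26 genes of chromatin and DNA methylation. Sdhd (succinate dehydrogenase), Psma5 (a 20S proteasome subunit), Smc3 (a cohesin subunit) and Mcm4 (a subunit of the replicative helicase) were each among the tallest 10% of all regions, with 1.60, 1.69, 1.64 and 1.73 times the median. The region at Sdhd also lay at ends of Timm8b and Nkapd1, and that at Mcm4 at an end of Prkdc. Tyms, the target of fluorouracil, had 0.42 times the median and Tet1, a 5-methylcytosine oxidase, 0.33. Of 13 housekeeping genes 10 had a region with a median of 1.29, and B2m reached 1.67. Actb, Ldha and Ywhaz had none by this rule.

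The pathway that carries the interleukin-33 signal had a region at nearly every gene. Interleukin-33 binds ST2 (Il1rl1) paired with Il1rap, and MyD88, IRAK kinases, TRAF6 and the IKK complex then activate NF-kB. Of 28 autosomal genes of the list 27 had a region, with a median scaled height of 1.08. The region at Il1rl1 lay at the other end of the gene, where it meets the start of Il18r1 (chr1:40465424-40466377), so it is not evidence about the start of Il1rl1. It had 48, 54 and 55 tags in WT and 37, 16 and 34 in KO. Il1rap had 95, 84 and 90 tags in WT and 55, 42 and 52 in KO. Among receptor-proximal adaptors, Myd88, whose region also held the start of Acaa1a, was the tallest at 1.65 times the median (112, 131 and 118 against 91, 67 and 97 tags), while Irak3, an inhibitory kinase relative, was at 0.57. Traf6 was at 0.92. Among the NF-kB subunits Rela was at 1.02 and Nfkb1 at 0.85. Rel was at 1.2018 and Relb at 1.42. The inhibitors of NF-kB covered a similar range, with Nfkbia at 1.40, Nfkbib at 1.56, Nfkbie at 1.33 and Nfkbiz at 0.84. Among proteins that limit the signal upstream, Tnfaip3 was at 1.25, Tnip1 at 0.93 and Cyld, a deubiquitinase, at 1.78.

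Genes of the Treg core list stood near the middle by their tallest regions. Of 27 Treg core genes 21 had a region, with a median scaled height of 1.05. Ikzf2, Ikzf4, Tnfrsf18, Tnfrsf9, Il2rb and Itgae had none by this rule. Foxo3 was the tallest at 1.90 times the median (128, 139 and 166 against 93, 88 and 99 tags). Ctla4, the inhibitory receptor, had 101, 107 and 104 tags in WT and 62, 54 and 70 in KO. Il2ra had 75, 64 and 78 tags against 56, 44 and 52. Icos, a co-stimulatory receptor, was the shortest of the list at 0.36 times the median (28, 25 and 26 against 24, 9 and 25). Of 25 effector and tissue Treg genes 18 had a region, with a median of 0.87. Klrg1, Gata3, Rora, Ccr4, Il10, Ebi3 and Pparg had none by this rule. Id2, a partner-blocking regulator of E proteins, was the tallest at 1.498 and Havcr2, which encodes TIM-3, the shortest at 0.30. Of 25 T cell receptor and identity genes 21 had a region, with a median of 0.88 and 0 among the tallest 25%. Lcp2, Tcf7, Lef1 and Trat1 had none by this rule. Cd3d was at 1.29 and Ets1 at 0.25. The regions of this list were also narrow, with a median length of 642.5 bp against 919 bp over the set.

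Regions at Th1 genes were low as a group, and of 30 markers of other cell types 9 had a region, beside 52.0% of all genes. Of 15 genes of the Th1 program 9 had a region, with a median scaled height of 0.60. Ifng had 35, 29 and 31 tags in WT and 11, 12 and 15 in KO, and Tbx21 had 44, 39 and 32 against 24, 14 and 26. Of 15 interferon response genes 13 had a region with a median of 0.86, from 0.26 at Ifit3 to 1.48 at Irf9. Among markers of other cell types, 1 of 6 B cell genes (Ebf1), 2 of 6 CD8 T and NK genes (Cd8b1 and Eomes), 2 of 6 myeloid genes (Spi1 and Cebpb) and 1 of 6 stromal genes (Col1a1) had a region, none above 0.785 times the median. Cd8a, Csf1r and Tyr had none. Of 6 melanoma genes 3 did, Mlana at 0.54, Mitf at 1.10 and Pmel at 1.98, and the region near Pmel also lay at the start of Rab5b, a broadly expressed GTPase.

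**Figure D4:**
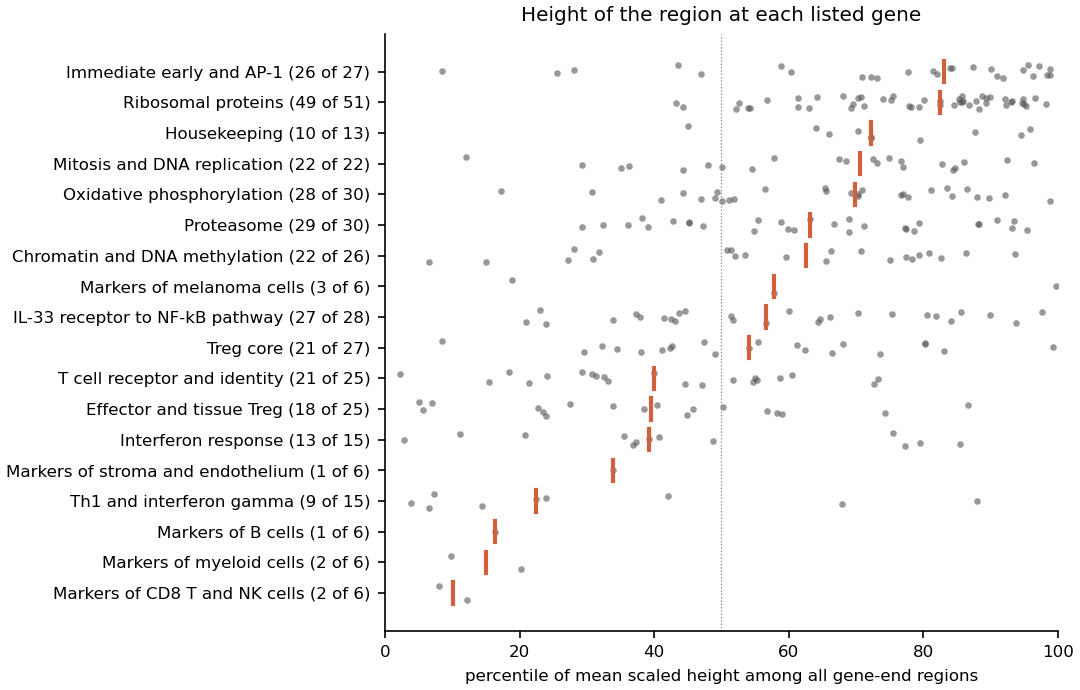
Percentile of the mean scaled height among all gene-end regions (0 to 100) for the tallest region at each listed gene. Each point is a gene, the bar marks the list's median, and the counts give genes with a region out of the autosomal genes of the list. The immediate-early and AP-1 list and the ribosomal protein genes have the highest medians, with the 83.0 and 82.5 percentiles, and the markers of B, myeloid, CD8 T and NK cells the lowest.

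Coverage of genes also varied by chromosome and family. Between 42.0% of genes (chromosome 7) and 60.3% (chromosome 11) had a region. Of 1104 olfactory receptor genes (Olfr) 2 had one, and of 354 vomeronasal receptor genes (Vmn) 2, families expressed in sensory neurons. These families were picked after their values were seen.

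Lengths were shorter in KO as a whole. The median length at gene ends was 1004 ± 14.8 bp in WT and 832 ± 64.2 bp in KO (SD, n = 3 each), a difference of -172 bp. All 3 KO medians were below all 3 WT medians, for which the exact permutation test of 3 against 3 gives p = 0.1, the smallest it allows. A region was split into several peaks in 4.96% of cases in WT and 10.7% in KO (means of 3, exact permutation p = 0.1). The median height per M tags was 6.02 ± 0.461 in WT and 6.31 ± 1.38 in KO, which overlapped (exact permutation p = 0.9).

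Heights were spread more widely in KO. The ratio of the 90th to the 10th percentile of height was 3.63, 3.70 and 3.85 in WT and 4.50, 4.85 and 4.30 in KO, without overlap (difference of means 0.825, exact permutation p = 0.1). The peak caller kept 1 tag per position, so a summit cannot exceed 400 tags, the positions on both strands under a 200 bp window. Raising each height to the value expected before this limit left ratios of 4.11, 4.23 and 4.44 in WT and 4.91, 5.19 and 4.72 in KO, a difference of 0.684 (exact permutation p = 0.1).

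Scaled height was then compared between KO and WT for each of the 28808 shared regions (limma on log2 heights divided by the gene-end median, Benjamini-Hochberg adjustment over all of them). Of the 10086 gene-end regions 429 were higher and 40 lower in KO at an adjusted p under 0.05. This was 4.25% and 0.397% of the members, against 1.89% and 0.371% of all regions tested. Most of the higher calls were tall regions: 306 of the 429 lay in the tallest 10% and 381 in the tallest 20%, and the lower calls had a median scaled height of 0.722. The median difference climbed with height, from -0.13 (log2) in the lowest 10% to 0.22 in the tallest 10%. When the 6 libraries were forced onto 1 distribution of heights (quantile normalization), the medians over steps of 10% in height were between -0.076 and 0.005, and 3 members were higher and 15 lower, 0.0297% and 0.149% of members against 0.0625% and 0.0937% of all regions. So the share of higher calls went from 91.5% to 16.7% with the scaling alone. With the correction for the limit of tags per position 121 members were higher and 17 lower, 1.2% and 0.169% of members against 0.618% and 0.146% of all regions. With heights per M tags limma called 0 members in either direction (60 higher and 97 lower at an unadjusted p under 0.05), and 0.00347% of all regions in each. With fold enrichment in place of pileup it called 0 members higher and 8 lower (617 and 829 unadjusted). The 8 were 0.0793% of members, against 0.469% lower and 0.0104% higher of all regions.

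**Figure D5:**
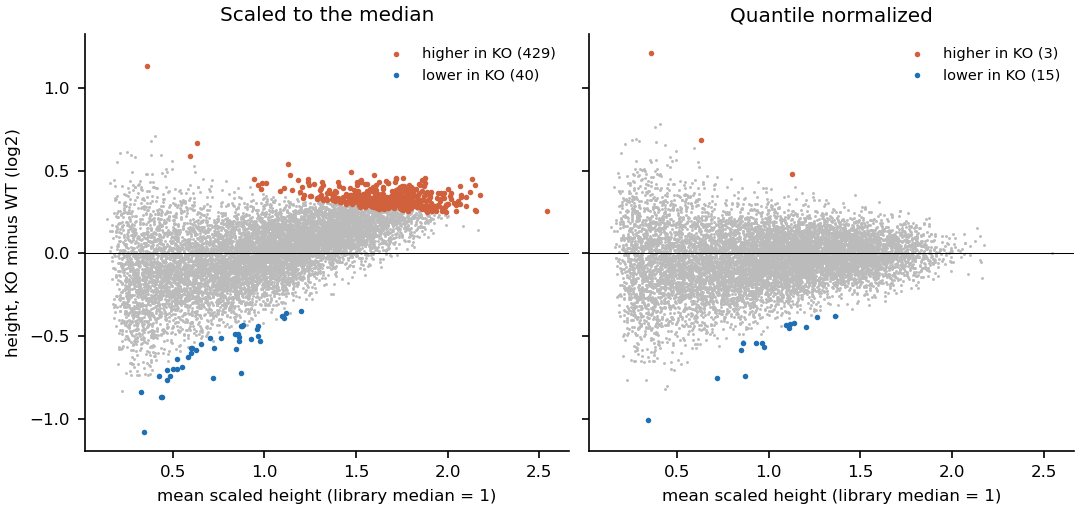
Difference in height between KO and WT (log2) against mean scaled height for the 10086 gene-end regions, with heights scaled to the library median (left) and quantile normalized (right). Coloured points passed limma at an adjusted p under 0.05: 429 higher and 40 lower on the left, 3 higher and 15 lower on the right, and the upward slope of the left cloud is absent on the right.

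The regions with the lowest p among those higher in KO were at Kat7, Ppm1b (a protein phosphatase), Cic, Cactin with Pip5k1c, Zbtb7a (a zinc-finger repressor), Hnrnpc with Rpgrip1, Car11 with Dbp, Tmem259, Dcakd with Nmt1, and Ddx54 with Rita1. Kat7 (chr11:95309316-95310945) had 146, 143 and 157 tags in WT and 113, 99 and 128 in KO. Scaled to the medians this was 1.81 ± 0.075 in WT and 2.47 ± 0.190 in KO (SD, n = 3 each), and all 3 KO values lay above all 3 WT values. The difference was 0.45 ± 0.068 (log2, SE, limma adjusted p = 0.000312). For these 10 regions it was between 0.39 and 0.46, and it fell to between 0.10 and 0.25 after quantile normalization, where none of the 10 passed.

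Of all 429 higher calls, those at Rab4a, Itpkb and Dynlt1b passed under quantile normalization too, and were picked here for that reason. Rab4a, a GTPase of endosome recycling, had 16, 22 and 17 tags in WT and 26, 13 and 32 in KO in a low region (chr8:123805573-123806357), a difference of 1.13 ± 0.227 (log2, SE) and 1.21 after quantile normalization. Itpkb, a kinase that limits calcium signals in lymphocytes, had 71, 73 and 83 tags in WT and 64, 49 and 73 in KO (chr1:180329946-180331149), a difference of 0.54 ± 0.101 and 0.48 after quantile normalization. Dynlt1b, a dynein light chain, had 34, 48 and 39 against 33, 33 and 40 tags (0.66 and 0.69).

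Lower in KO with the lowest p were Dnajc24, Mthfsd, Tmem267, Snrpd1, Ptbp2, Anapc7, Slc25a12, Zfp11, 4930453N24Rik and Usp42. Dnajc24, a factor of diphthamide synthesis, had 92, 82 and 92 tags in WT and 41, 21 and 31 in KO (chr2:106002890-106003702). Scaled, this was 1.08 ± 0.082 in WT and 0.663 ± 0.151 in KO (SD, n = 3 each), with no overlap and a difference of -0.72 ± 0.133 (log2, SE, adjusted p = 0.00266). Quantile normalization gave -0.74 (adjusted p = 0.00257). Snrpd1, a core protein of the spliceosome, had 98, 90 and 96 against 36, 33 and 41 tags, and Ptbp2, a splicing regulator, 79, 87 and 84 against 33, 22 and 41. Anapc7, a subunit of the anaphase-promoting complex, had 85, 88 and 97 against 40, 29 and 37 tags, and Slc25a12, the mitochondrial aspartate-glutamate carrier, 80, 89 and 82 against 34, 26 and 38. The 10 differences ran from -1.08 at Mthfsd to -0.50 at 4930453N24Rik. After quantile normalization 8 of the 10 still passed, all but Zfp11 and Usp42. With fold enrichment 2 of the 10 did, Slc25a12 and Zfp11. Without WT replicate 2 a single member was called lower, without WT replicate 4 there were 2, and without WT replicate 6 there were 10. Over all regions the same settings called 4, 11 and 29 lower. Gene ends here are the outer bounds of the annotated gene, and by these the regions at Mthfsd, Ptbp2, 4930453N24Rik and Usp42 lay 848 bp or more from an end. Those at Ptbp2 and 4930453N24Rik nevertheless held another RefSeq start of their gene. Over the set, 12 of the 40 lower calls were also called after quantile normalization.

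The calls also differed in promoter letters and in arrangement. A CCAAT box was in 65.7% of 522 promoter windows under regions called higher and in 15.2% of 33 windows under those called lower, beside 39.6% over the set. Most higher calls, 306 of 429, lay in the tallest 10% of regions. There the CCAAT box was in 63.4% of windows, close to the share under higher calls. It was in 32.4% of windows at middle height and 32.2% in the lowest 10%, above the share under lower calls. Of the higher calls 34.7% lay near ends of several genes and of the lower calls 7.50%. Of all regions in the tallest 10% the share was 31.2%, and in the lowest 10%, which held 2 of the 40 lower calls, it was 6.64%. In the steps of 10% from there up to the median height the shares were 9.22%, 11.1%, 13.5% and 18.6%. Those steps held 10, 9, 8 and 7 lower calls, and the rest were taller. The 7.50% was thus below the shares at the heights where most lower calls lay. These shares describe calls made from the heights, or groups chosen by height, and were not tested.

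Of the 302 listed genes with a region, each read at its tallest region, 10 were called higher (3.31%) and 0 lower. The shares were 4.25% and 0.397% of all members and 1.89% and 0.371% of all regions. Other regions of the listed genes were not counted here, and lower calls lay mostly in low regions, so the 0 does not cover them. Of the Treg core genes 1 of 21 was higher, Runx1, a partner of Foxp3, with 77, 77 and 81 tags in WT and 55, 59 and 68 in KO, a difference of 0.47 ± 0.108 (log2, SE, limma adjusted p = 0.0121; 0.40 and 0.0838 after quantile normalization). Of the interleukin-33 pathway 1 of 27 was higher, Myd88, at 0.33 ± 0.078 (adjusted p = 0.0164; 0.13 and 0.5003 after quantile normalization). Among the other lists the calls, all higher, included Btg1 (1 of 26 immediate-early and AP-1 genes) and Ndufa2 (1 of 28, in a region also at an end of Ik). They also included Psma2 and Psmc5 (2 of 29), Rpl18 (1 of 49), Ubb (a polyubiquitin gene) and Pmel. None of these 9 named genes passed after quantile normalization. At these tallest regions the effector Treg, T cell receptor, Th1, interferon, chromatin and mitosis lists had 0 calls at an adjusted p under 0.05 in limma. Areg, an epidermal growth factor family ligand made by tissue Tregs, had 63, 51 and 63 tags in WT and 28, 20 and 23 in KO, a difference of -0.48 ± 0.159 that did not pass (adjusted p = 0.0981). List medians of the difference were between -0.29 and 0.13, beside 0.03 over the set.

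Length was compared in the same way, scaled to each library's median length. Of the members 0 were longer and 16 shorter in KO at an adjusted p under 0.05 (limma; 861 longer and 997 shorter at an unadjusted p under 0.05). The 16 were 0.159% of the members, against 0.0972% of all regions. The 5 with the lowest p were the shared start of Gm46752 and Ptprj (a receptor phosphatase, CD148), Plxnd1 (a semaphorin receptor), Ppp4r4, Btbd1 and Cxcl2 (a neutrophil-attracting chemokine). At Ptprj (chr2:90579457-90581564) the peaks covered 1748, 1902 and 1523 bp in WT and 448, 335 and 452 bp in KO, a difference of -1.80 ± 0.120 (log2, SE, limma adjusted p = 0.00775). At Plxnd1 they covered 1908, 1868 and 1737 bp against 523, 526 and 446 bp, and at Cxcl2 996, 1022 and 1045 bp against 301, 200 and 223 bp. Tags were extended to 200 bp, and the length was 200 bp in KO library 2 at Cxcl2 and in KO library 1 at Btbd1. Cxcl2 had 13, 7 and 11 tags in KO, near the lowest summits at gene ends, so its KO lengths were near the limit of peak calling. At none of the 5 was the scaled height different at an adjusted p under 0.05, and their heights were between the 1.29 and 28.7 percentiles of the set. All 16 calls were lost when any WT library was left out, and with no scaling of length 751 of 10086 members were shorter. Over all 28808 regions 1499 were shorter with no scaling.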

How the data were processed

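Per the file headers, MACS 2.1.1.20160309 called the peaks of each library separately at a q-value of 0.05, with tags shifted by -100 bp, extended to 200 bp and 1 tag kept per position. The submitters' processing notes name Bowtie2 2.3.1, Picard 1.88 and mm10. The pileup deposited by the authors is coverage at the summit (a signal), not scaled to depth. The deposited −log10 p-values and −log10 q-values served for 1 stricter list, and the deposited fold enrichment, a ratio over local background, as an alternative height. The deposited length is in bp.

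A region's height in a library was its tallest peak and its length the sum of its peaks. Every member had a peak in every library, so no value was imputed. Scaled values entered limma 3.58.1 (R 4.3.3, trend, Benjamini-Hochberg) over 28808 regions, and a low filter was not used in the main analysis. Library medians were compared by exact permutation of 3 against 3 and by exact sign flips over 6 libraries. Depths of 4.72 to 15.2 M tags limit the low regions most. Named regions were the 10 tallest and 10 widest, the 3 shortest and 3 narrowest, up to 10 per direction by height and 5 by length, and, of each list, up to 4 tallest and the shortest. Others were picked after their values were seen. Some listed genes are not reported here. The members and all lists were chosen with earlier results of these data known. Replicate numbers 2 and 4 occur in both genotypes, but deviations of same-numbered libraries did not go together (r of -0.02 and -0.05), so the main analysis had no block. Of 370 listed symbols 362 matched autosomal genes. Steps were tested on simulated data. There WT and KO heights came from the same profile apart from planted changes, with no limit of tags per position. That test does not bear on how the calls depended on scaling. Figures were drawn with Matplotlib 3.10.9, and other steps used pandas 2.3.3, SciPy 1.17.1 and NumPy 2.4.6 under Python 3.11.15.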

Additional observations from a re-analysis of the deposited data

How the results depend on the processing

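The number of gene-end regions was between 7621 and 10530 under every alternative that redefined it. The ratios of gene ends to other shared regions kept their direction under all alternatives, at 1.66 to 1.86 for length and 1.31 to 2.41 for height. Leaving out a library gave 1.79 to 1.86 and 2.29 to 2.41, with p = 0.0625, the smallest p that exact sign flips of the remaining libraries can give. The shorter length and wider spread in KO kept their direction and their exact permutation p = 0.1 in every alternative tested, although the spread difference was 0.0754 with fold enrichment.

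Counts of called regions depended on the processing. Leaving out a library gave 37 to 673 members higher and 1 to 69 lower in height, and 0 to 32 shorter. The members then numbered 10093 to 10530. Over all 28926 to 32612 regions then tested, 45 to 868 were higher, 4 to 200 lower and 0 to 51 shorter. The lowest counts of higher members were 37 without WT replicate 4 and 62 without WT replicate 2, and the highest, 673, without KO replicate 4. Over all regions these settings gave 45 of 28952, 77 of 28926 and 868 of 30178. Without WT replicate 6 the count of higher members was 163 and without KO replicate 1 it was 180. Over all regions these were 191 of 28928 and 233 of 30044. Higher regions numbered 219 of 7941 members where the peaks had to cover 50% of the region and 209 of 7621 at gene starts only. Over all regions they numbered 273 of 18352 and 302 of 28808. Higher and lower regions numbered 3 and 15 after quantile normalization, 121 and 17 after correction for the limit of tags per position (an alternative chosen after seeing the data), 0 and 8 with fold enrichment and 0 and 0 per M tags. Shorter members numbered 50 of 9384 at the stricter q-value, 0 where the peaks had to cover 50% of the region and 751 with no scaling. Over all regions the shorter ones numbered 70 of 23712, 0 of 18352 and 1499 of 28808. The longest single peak gave 136 members shorter and 1 longer, and over all 28808 regions 193 shorter and 2 longer. The 50% rule removes regions with short KO peaks, such as Ptprj (335 of 2108 bp in KO library 2), so its 0 does not speak to them. The cause of the other changes in these counts was not tested. A block for replicate numbers 2 and 4, a pairing that the data did not bear out, gave 114 members higher and 12 lower in height and 171 shorter. Of the 114 and 12, 110 and 8 were shared with the main calls. Over all 28808 regions the block gave 144 higher, 37 lower and 290 shorter. The block left the length difference at -190.5 bp and the spread difference at 0.912. Of the 429 higher calls 418 kept their direction after quantile normalization and 427 with fold enrichment, and the 40 lower calls kept theirs in both. The median difference of the members went from 0.03 to -0.03 (log2) with quantile normalization. Of the 10 regions named as lower in KO, 5 passed with the block, 8 with quantile normalization and 2 with fold enrichment. Of the 10 regions named for the lowest p in the higher direction, each lost its call only with quantile normalization, fold enrichment or heights per M tags. Dnajc24 lost its call only with fold enrichment or per M tags.

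Depth limits the short regions most: the lowest summits at gene ends were 9 to 10 tags in WT and 4 to 7 in KO.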
